A study of Mus musculus with 2 samples.

Results

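The interleukin-1 family and its antagonists were followed as 8 genes in stimulated mouse macrophages. The agonist cytokines were Il1a, Il1b and Il18. The antagonists were the receptor antagonist gene Il1rn, the interleukin-18 binding protein gene Il18bp and the decoy receptor gene Il1r2, and the signalling receptor chains were Il1r1 and Il1rap. They were chosen by gene symbol and are 8 of the 55536 mouse genes in the tables. The cells were primary macrophages grown from the marrow of C57BL/6J mice, exposed for 120 minutes to 100 ng/ml of a stimulus, and their polyadenylated RNA was sequenced. The free-text label calls that stimulus lipid A, the part of bacterial lipopolysaccharide that Tlr4 senses, whereas the treatment field calls it lipoprotein A, a protein. Sex and age were not recorded. The series holds 1 group of 2 libraries, replicates 1 and 2, which share a donor record, so nothing says that they came from separate animals, and the spread between them may be technical. No unstimulated cells were analysed here. Each value is therefore a level in stimulated cells, and no test between conditions exists.

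Interleukin-1 alpha and interleukin-1 beta bind the same receptor, Il1r1, which then recruits the accessory chain Il1rap and signals through Myd88 and Irak kinases to NF-kB. The antagonist encoded by Il1rn occupies Il1r1 without recruiting Il1rap. Il1r2 binds the same cytokines but lacks the cytoplasmic signalling domain, and so acts as a decoy. Interleukin-18 is held in check by a soluble binding protein, the product of Il18bp. Interleukin-1 beta and interleukin-18 are made as precursors that caspase-1 cleaves in the inflammasome. Macrophages store interleukin-18 precursor at rest and make interleukin-1 beta on stimulation of Toll-like receptors.

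The total of estimated counts on mouse genes was 33272581 in replicate 1 and 50266403 in replicate 2. A gene with 0 counts could, from counting error alone, still have up to 3 counts, or 0.0902 and 0.0597 CPM (counts scaled to library size). The biological coefficient of variation between the libraries was 21.5% over 12178 genes. All 8 of 8 macrophage markers were present at 1 TPM or more, with Csf1r at 627.68 and 728.25 TPM in replicates 1 and 2. TPM is abundance per transcript length, scaled to the same sum in each library, and is the scale on which the levels of different genes are compared below unless counts are named. Values after ± are SD with n = 2.

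The stretches just upstream of transcription show where the abundant members differ in sequence. They come from RefSeq (GRCm38.p6, the mm10 assembly), where all 8 members matched 11 start sites. Each window held 250 bases, and the printed runs end before the first base of any annotated transcript. Il1a and Il1b, the most abundant agonists, are shown with Il1rn, which has separate upstream and downstream starts. All are written 5′ to 3′ on the strand of the gene, with matches to searched motifs in capitals.
Il1a, minus strand, chr2:129309973-129310222: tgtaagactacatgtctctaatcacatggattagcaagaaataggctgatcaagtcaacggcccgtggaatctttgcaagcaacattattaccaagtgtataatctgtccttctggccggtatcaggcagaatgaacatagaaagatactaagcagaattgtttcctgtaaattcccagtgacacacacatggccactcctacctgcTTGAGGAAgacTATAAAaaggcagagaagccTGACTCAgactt
Il1b, minus strand, chr2:129371140-129371389: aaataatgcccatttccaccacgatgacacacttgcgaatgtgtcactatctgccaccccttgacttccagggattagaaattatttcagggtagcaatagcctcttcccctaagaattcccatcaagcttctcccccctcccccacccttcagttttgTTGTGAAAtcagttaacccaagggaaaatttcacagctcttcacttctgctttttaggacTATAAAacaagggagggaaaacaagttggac
Il1rn, upstream start, plus strand, chr2:24336610-24336852: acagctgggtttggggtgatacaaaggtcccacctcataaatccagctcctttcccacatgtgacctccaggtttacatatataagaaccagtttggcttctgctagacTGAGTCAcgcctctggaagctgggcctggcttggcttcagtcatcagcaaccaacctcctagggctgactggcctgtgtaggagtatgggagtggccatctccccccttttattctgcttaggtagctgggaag
Il1rn, downstream start, plus strand, chr2:24345041-24345287: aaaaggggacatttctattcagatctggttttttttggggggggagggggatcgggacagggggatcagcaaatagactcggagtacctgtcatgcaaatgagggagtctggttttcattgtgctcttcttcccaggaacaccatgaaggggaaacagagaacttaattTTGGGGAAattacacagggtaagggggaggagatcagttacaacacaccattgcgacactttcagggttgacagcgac

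The searched motifs, on both strands, were the TATA box TATAAA, the AP-1 motif TGANTCA, the C/EBP motif TTNNGNAA, the PU.1 motif GAGGAA and the NF-kB consensus by its name. Among 32851 RefSeq windows of the same length, 12.4% held TATAAA, 6.75% the AP-1 motif, 36.8% the C/EBP motif, 23.3% the PU.1 motif and 7.25% the NF-kB consensus. The TATA box began 32 bases upstream of the Il1a start and 31 bases upstream of the Il1b start. A TATAAA beginning 20 to 40 bases upstream was found in 822 windows, or 2.5%. None of the 3 Il1rn windows held one, and the Il18 window had one far from the start, at 175 bases. Il1a also held an AP-1 match 12 bases upstream and overlapping C/EBP and PU.1 matches 43 and 41 bases upstream. C/EBP matches also lay 91 bases before the Il1b start, 49 before that of Il18bp, and 154 and 133 before the upstream Il1r1 start. An AP-1 match lay 141 bases before the upstream Il1rn start, and a C/EBP match 81 bases before the first of the downstream ones. Of the 11 windows 1 held the NF-kB consensus, 232 bases before the downstream Il1r1 start, where it overlaps a C/EBP match. Il1r2 and Il1rap held none of the motifs. For Il1r2, Il18, Il18bp, Il1rap and Il1rn no RefSeq start is the first base of the leading transcript described below. A match describes letters in these windows and shows no binding.

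The agonists of the interleukin-1 receptor were among the most abundant messages of these cells. Il1b (chr2:129364570-129371139, minus strand, mm10) stood at 3541.3 TPM in replicate 1 and 1846.27 TPM in replicate 2, or 2694 ± 1199 TPM. It ranked 26 and 58 among mouse genes and exceeded the glycolytic reference Gapdh, at 1401.6 and 1233.47 TPM, in both libraries, but was below the actin reference Actb, at 4861.77 and 3283.48 TPM. Il1a (chr2:129299610-129309972, minus strand) stood at 2200.61 and 720.2 TPM, or 1460 ± 1047 TPM, with ranks of 57 and 179. The ranges of the 2 genes overlapped, although Il1b was the higher within each library. Their starts lie 61167 bases apart on chromosome 2.

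Il18, the third agonist, was far below them. Il18 (chr9:50554827-50581840, plus strand) stood at 57.29 and 38.25 TPM, or 47.77 ± 13.46 TPM. The TPM of Il1b was 61.8 and 48.3 times that of Il18 in replicates 1 and 2. The 3 agonists together reached 5799 TPM in replicate 1 and 2605 TPM in replicate 2.

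Among the antagonists, Il1rn was abundant in both libraries and after Il18bp had the smallest SD of the 8 in relation to its mean. Il1rn (chr2:24336853-24351494, plus strand) stood at 692.0 TPM in replicate 1 and 850.81 TPM in replicate 2, or 771.4 ± 112.3 TPM, with ranks of 196 and 153. Its range overlapped that of Il1a. Il18bp (chr7:102014885-102018690, minus strand) stood at 75.98 and 64.73 TPM, or 70.36 ± 7.96 TPM. Both Il18bp values lay above both Il18 values.

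The decoy receptor Il1r2 (chr1:40074079-40125231, plus strand) was low, at 1.8 and 3.32 TPM, or 2.56 ± 1.08 TPM. These levels rest on 46 counts (95% exact Poisson interval 33.7 to 61.4) and 125 counts (104.0 to 148.9). With Il1rn and Il18bp it brought the antagonists to 769.8 and 918.9 TPM.

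The signalling receptor chains were as low as the decoy. Il1r1 (chr1:40225080-40317257, plus strand) stood at 2.08 and 1.03 TPM, or 1.56 ± 0.74 TPM, from 220 and 171 counts. Il1rap (chr16:26581704-26730117, plus strand) stood at 3.45 and 2.18 TPM, or 2.82 ± 0.90 TPM, from 296 and 280 counts. The ranges of Il1rap and Il1r2 overlapped, as did those of Il1r2 and Il1r1, whereas both Il1rap values lay above both Il1r1 values. The chains summed to 5.53 and 3.21 TPM, against 5799 and 2605 TPM for the agonists. All 8 members reached 1 TPM in both libraries, beside 10285 mouse genes in all, or 18.5%. That share is over all 55536 mouse genes, noncoding ones included, whereas the members are coding genes. Of the members 3, Il1a, Il1b and Il1rn, reached 100 TPM. With kallisto values, 7 members reached 1 TPM in both, Il1r1 being at 0.905 TPM in replicate 2.

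**Figure D1:**
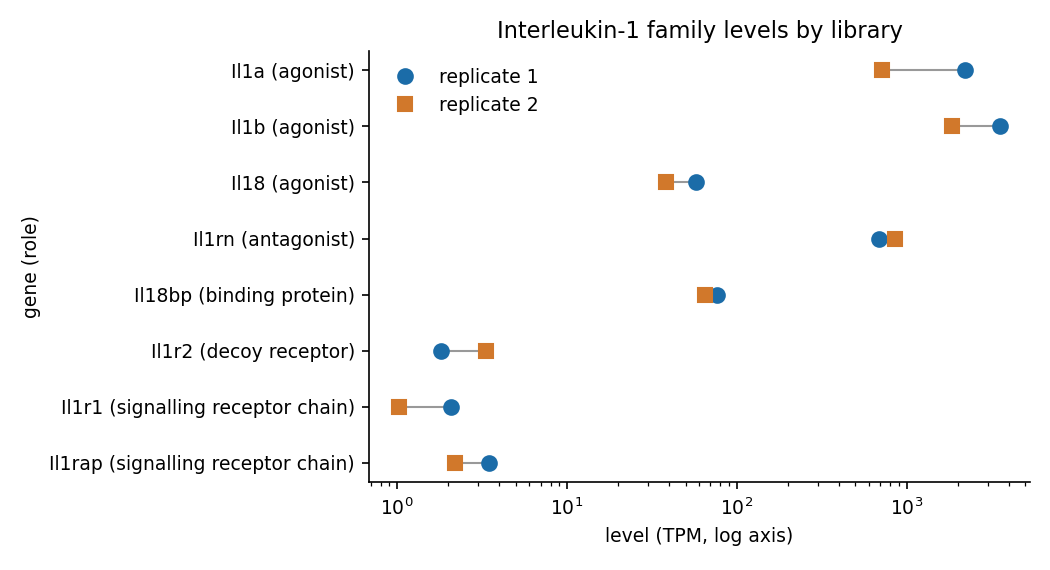
Level of each of the 8 genes in TPM (log axis), with circles for replicate 1 and squares for replicate 2 and a line joining the libraries. Il1a, Il1b and Il1rn lie above 100 TPM in both libraries, and the receptors lie between 1.03 and 3.45 TPM.

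The balance of antagonist against agonist was computed within each library, where library scaling cancels. Agonist message exceeded antagonist message at the interleukin-1 receptor in both libraries. Il1a and Il1b together exceeded Il1rn 8.3-fold in replicate 1 and 3.02-fold in replicate 2, so that Il1rn amounted to 12.1% and 33.2% of their sum. The log2 ratio was -3.05 and -1.59, a mean of -2.32 ± 1.03, and the libraries differed 2.75-fold in it. Taken singly, Il1b exceeded Il1rn 5.12-fold and 2.17-fold. Il1a exceeded Il1rn 3.18-fold in replicate 1, whereas in replicate 2 Il1rn was the higher, at 1.18 times Il1a.

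At interleukin-18 the order was the opposite. Il18bp exceeded Il18 1.33-fold in replicate 1 and 1.69-fold in replicate 2, a log2 ratio of 0.41 and 0.76 with a mean of 0.58 ± 0.25. Counts without length correction gave the same direction with larger ratios, 2.98 and 3.69.

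The decoy and the signalling receptor had no settled order. The TPM of Il1r2 was 0.87 times that of Il1r1 in replicate 1 and 3.22 times in replicate 2, a log2 ratio of -0.21 and 1.69 with a mean of 0.74 ± 1.34. The SD exceeded the mean. In counts, where the longer Il1r1 messages weigh more, Il1r2 was below Il1r1 in both libraries, at 0.21 and 0.73 times. Il1rap exceeded Il1r1 1.66-fold and 2.12-fold in TPM.

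**Figure D2:**
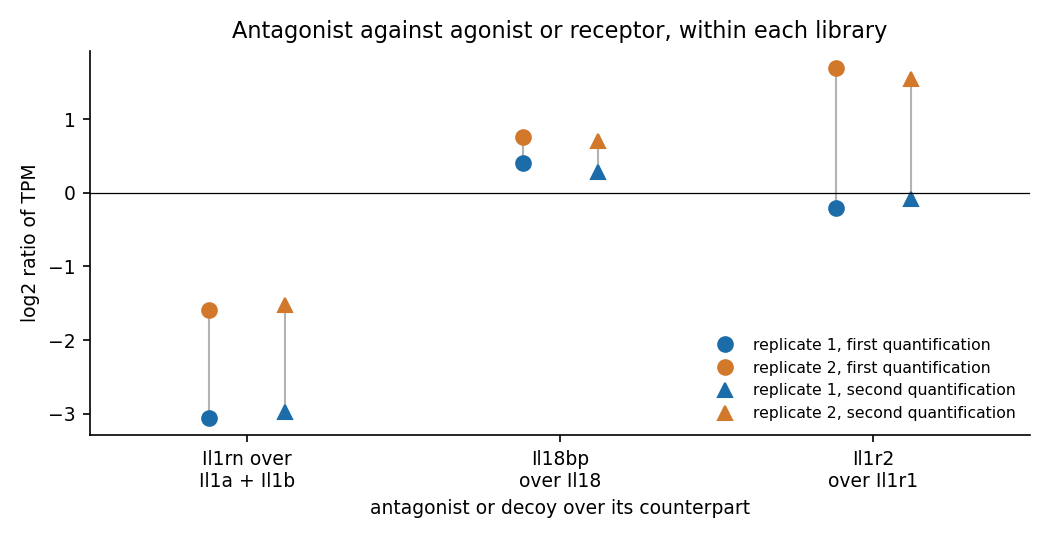
Log2 ratio of TPM of each antagonist, binding protein or decoy over its counterpart, in replicate 1 (blue) and replicate 2 (orange), from the RSEM-format gene table (circles, first quantification) and the kallisto-format table (triangles, second quantification). The Il1rn ratio lies below 0 in both libraries and the Il18bp ratio above 0, while the Il1r2 ratio lies on both sides.

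Between the libraries the agonists and the signalling chains were lower in replicate 2, and Il1rn and Il1r2 were higher. For this the ratio of CPM normalised by trimmed mean of M-values (TMM), replicate 2 over replicate 1, was taken wherever the mean of both counts reached 50. Of 10445 such genes 414, or 3.96%, were 2-fold or more apart: 2.23% were lower in replicate 2 and 1.73% were higher. Of these 414 genes 56.3% were lower in replicate 2, a share that became 76.0% with scaling by total count and 71.3% with log2(TPM + 1). Of the 8 members 1, Il1a, passed 2-fold, and it was lower in replicate 2. With 1 library on each side this is a description and carries no test.

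Il1a gave 83937 counts in replicate 1 and 40443 in the deeper replicate 2, a log2 ratio of -1.50 (95% interval for counting error alone -1.52 to -1.48), or 2.83-fold lower. Il1b gave 85354 and 65398 counts, a log2 ratio of -0.83 (-0.85 to -0.82). The difference in these abundant messages was therefore larger than counting error, while Il1b stayed short of 2-fold. For the third agonist, Il18, with 662 and 661 counts, the log2 ratio was -0.45 (-0.61 to -0.29).

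Il1rn gave 25984 and 46219 counts, a log2 ratio of 0.38 (0.36 to 0.41). Il18bp gave 1972 and 2441 counts, a log2 ratio of -0.14 (-0.23 to -0.05), the smallest difference of the 8. Il1r2 stood at the 2-fold line, with a log2 ratio of 0.995 (0.50 to 1.52), and DESeq2 size factors moved it just past, to 1.001. The log2 ratio was -0.81 (-1.11 to -0.52) for Il1r1 and -0.53 (-0.77 to -0.29) for Il1rap. In all 6 members were lower in replicate 2 and 2 were higher, with a median log2 ratio of -0.49 beside 0.009 over all genes compared. The median absolute log2 ratio was 0.67, beside 0.237 over all genes.

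Scaling by total count moved the median of all genes to -0.14, and there Il1rn and Il1r2 were still above 0, at 0.24 and 0.85.

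**Figure D3:**
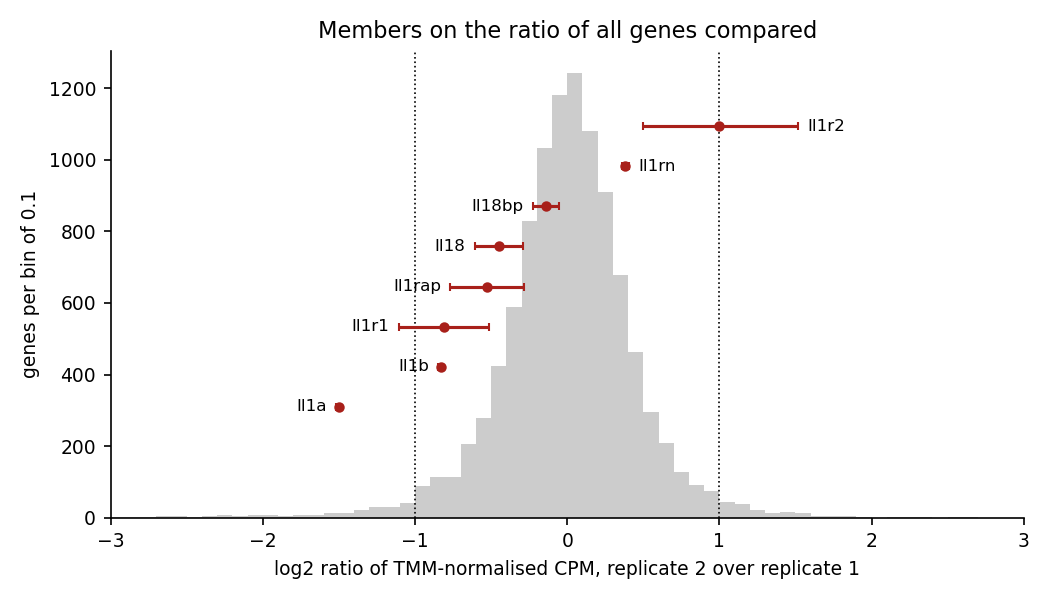
Log2 ratio of TMM-normalised CPM, replicate 2 over replicate 1, for the 10445 genes compared (grey, genes per bin of 0.1) and for the 8 members (red points, with 95% intervals for counting error), whose height is arbitrary. Dotted lines mark 2-fold; Il1a lies past the lower line and Il1r2 at the upper one.

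Markers of granulocytes, which can carry Il1b, Il1rn and Il1r2 messages, also differed between the libraries. The 12 markers summed to 574.7 TPM in replicate 1 and 109.5 TPM in replicate 2. Of these 6 could be compared and 4 were 2-fold or more lower in replicate 2, beside 2.23% of all genes compared. The median log2 ratio of the 6 was -2.74. The granule protein gene Ngp had 1429 and 100 counts and S100a9, a calprotectin subunit gene, 1408 and 322. Csf3r, with 2827 and 3222 counts, and Mmp8, with 571 and 554, stayed short of 2-fold, at log2 ratios of -0.26 and -0.49. The defining neutrophil antigen Ly6g had 4 and 0 counts, and the chemokine receptor Cxcr2 had 9 and 5. The macrophage markers summed to 20040 and 26040 TPM, and none was 2-fold apart. The part of the granulocyte messages in the differences of Il1a, Il1b, Il1rn and Il1r2 was not tested. In bulk RNA fewer cells of a type and less RNA per cell cannot be told apart.

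Of 8 stromal and endothelial markers, cells that can carry Il1r1, none reached 1 TPM in both libraries, and they summed to 2.79 and 2.47 TPM. The T and NK cell markers summed to 1.02 and 0.08 TPM with Trac and Gzma at 0 counts, and the mast cell and basophil markers to 2.15 and 0.1 TPM. The B cell markers summed to 2.53 and 1.48 TPM and the dendritic cell markers to 5.33 and 2.65 TPM. Of the dendritic cell markers 3 could be compared. Among them 1, Zbtb46, was 2-fold or more lower in replicate 2, with a log2 ratio of -1.74, beside 2.23% of all genes compared. Ccr7 and Xcr1 stayed short of 2-fold, at -0.62 and -0.27. The part of all these cells in the low receptor levels, or in the differences of the members between the libraries, was not tested.

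Transcript shares are the percent of a gene's TPM assigned to each annotated transcript. A leading transcript held more than 90% in 3 members. Il1a has a single annotated transcript. Il1b-201 held 99.51% and 99.38% of Il1b, the remainder going to noncoding transcripts, and Il1r2-201 held 100% of Il1r2 in both libraries, from the few counts given above. For all 8 members the leading transcript was the same in the kallisto table.

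The annotated starts of Il1rn lie 8435 bases apart. As background, the main transcript of the downstream start begins with the exon for a signal peptide and encodes the secreted antagonist, and the upstream start is known for intracellular forms. Il1rn-201, with 178 codons and the downstream start, held 84.7% in replicate 1 and 82.75% in replicate 2, a mean of 83.7% ± 1.38. The downstream transcripts together held 90.6% and 91.0%. Those from the upstream start held 9.36% and 8.97%, led by Il1rn-204, which has 159 codons. In TPM the upstream transcripts amounted to 64.8 and 76.3. The kallisto table gave them 8.77% and 6.93%. The start usage thus differed by under 1 percentage point between the libraries in the RSEM-format table, though the level of the gene differed.

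Il18 was the only member of the 8 whose leading transcript stayed under 50%. Il18-204, with 192 codons, held 45.51% and 41.47%. Il18-202, which encodes as many codons, held 42.81% and 38.34%. Its first annotated base lies further downstream, inside the coding exon, and whether transcription starts there was not tested. Il18-203, from the most upstream start, has 78 codons and held 11.69% and 20.19%. The kallisto table gave Il18-204 62.9% and 58.0% and put Il18-202 at 13.6% and 12.4%. Il18-201 and Il18-202 are both 702 bases long and differ at 7 bases, and Il18-201 was at 0 in the RSEM-format table and at 4.95% and 2.17% in the other.

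Il18bp was carried by Il18bp-201, at 61.68% and 61.43%, and Il18bp-203, at 34.3% and 32.86%. Both encode 193 codons, and together they held 96.0% and 94.3%. The share of Il18bp-201 differed by less between the libraries than any other leading share among the members with more than 1 coding transcript above 0.

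The receptor chains gave less precise shares. Il1r1-202, from the downstream start, held 85.0% of Il1r1 in replicate 1 and 55.87% in replicate 2, and Il1r1-201, which starts 41506 bases upstream, held 15% and 44.13%. These shares rest on 38.9 and 83.8 estimated counts for Il1r1-201. The kallisto table gave Il1r1-201 7.88% and 24.45%, higher in replicate 2 as well. Il1rap-201, with 570 codons, held 77.51% and 82.4% of Il1rap, and a shorter coding form of 360 codons, Il1rap-206, held 19.48% and 17.13%. The long form Il1rap-202, of 685 codons, held 3.01% and 0.47%, from 9.73 and 1.43 estimated counts.

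**Figure D4:**
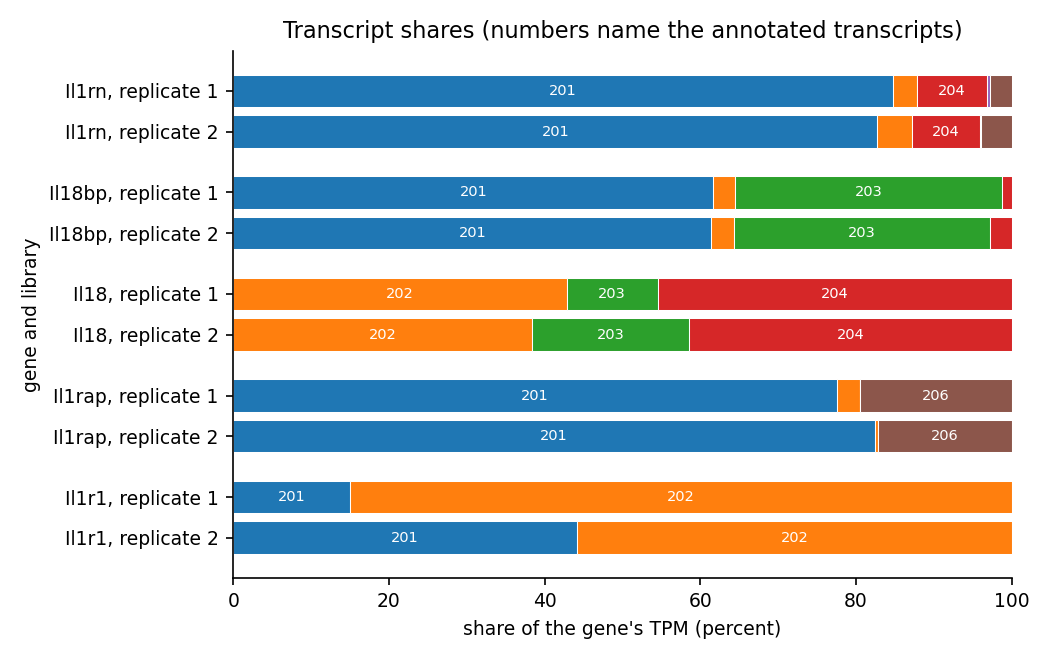
Share of the gene's TPM in each annotated transcript, in percent, for the 5 members with more than 1 transcript of weight, with a bar for each library and the transcript number inside segments over 7%. The Il1rn and Il18bp bars are alike between the libraries, and the Il1r1 bars differ most.

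After the stop codon the members differed in AU-rich pentamers. AUUUA in such stretches is a known feature of short-lived cytokine messages, bound by proteins such as tristetraprolin. The leading transcripts were read from the GENCODE M21 sequences, where the pentamer is written ATTTA, and set beside 9064 expressed coding genes with at least 100 bases after the stop, whose median was 1 pentamer or 1.34 per kb. Il1b held 4 in 459 bases, or 8.71 per kb, a density reached by 1.29% of these genes. In number, 26.2% of the genes held as many pentamers. Il1a held 3 in 1101 bases, or 2.72 per kb, which 24.2% reached, and 34.9% held as many. The densest windows of 30 bases are shown for these 2 agonists, with the pentamers in capitals.
Il1b-201, from base 192 after the stop: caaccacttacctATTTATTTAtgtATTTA
Il1a-201, from base 573 after the stop: attttatctatgtATTTAtaaatatATTTA

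No pentamer was found in the 1306 bases of Il1rn-201, the 563 bases of Il18bp-201 or the 24 annotated bases of Il1r2-201. At least 1 pentamer was held by 68.3% of the 9064 genes, so a lack of any is not rare. The stretch of Il1r2-201 is shorter than the 100 bases required of those genes. Il18-204 held 1 in only 123 bases, or 8.13 per kb, which 1.58% of the genes reached. In so short a stretch 1 pentamer gives a density near that of Il1b. Il1r1-202 and Il1rap-201 held 8 each in 2808 and 2676 bases, 2.85 and 2.99 per kb. These densities, above that of Il1a, were reached by 23.0% and 21.3% of the genes, and 8.75% held as many pentamers. The longer motif TTATTTATT, present in 7.03% of the genes, was in none of the 8. No decay was measured in these libraries.

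**Figure D5:**
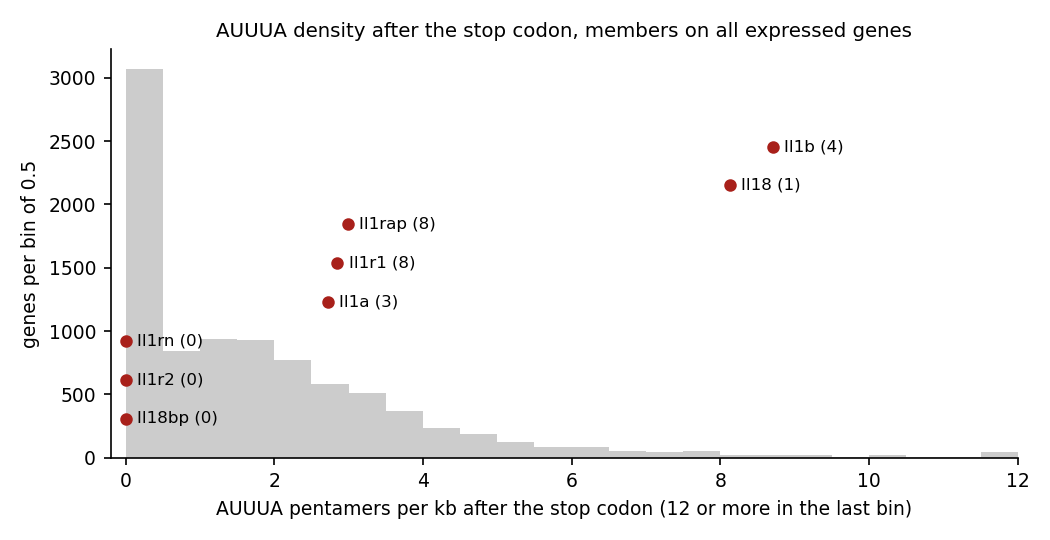
AUUUA pentamers per kb after the stop codon in 9064 expressed coding genes (grey, genes per bin of 0.5) and in the leading transcript of each member (red points, with the number of pentamers in brackets), whose height is arbitrary. Il1b lies at 8.71 per kb and Il18, with 1 pentamer, at 8.13, and Il1rn, Il18bp and Il1r2 lie at 0.

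Overlapping genes on the other strand were minor beside the members in most cases. The antisense gene Il1bos overlaps Il1b by 1243 bases and had 163 and 129 counts. Gm14023 overlaps Il1a by 8217 bases and had 119 and 32.2. Bco2 overlaps Il18 by 355 bases, with 83 and 130 counts, and Tex12 overlaps it by 4507 bases, with 2 and 8 counts. Numa1 overlaps Il18bp by 80 bases and had 2166 and 3607 counts. Per length Numa1 was below Il18bp, at 24.79 and 27.22 TPM. Whether counting used strand is not given in the sources used here, so reads in these overlaps cannot be assigned with certainty.

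The family genes that lie beside Il1rn and beside Il1r2 and Il1r1 were low or at 0. Il1rn lies at the end of a cluster on chromosome 2 in which Il1f8, Il1f6, Il1f5 and Il1f10, encoding interleukin-36 cytokines, the interleukin-36 antagonist and interleukin-38, had 0 counts in both libraries. Il1f9, encoding interleukin-36 gamma, was the exception with 83 and 35 counts, or 2.7 and 0.77 TPM. On chromosome 1, Il1r2 and Il1r1 are followed by Il1rl2, the interleukin-36 receptor, at 2.43 and 2.24 TPM. Next to it, Il1rl1, the interleukin-33 receptor, had 12 and 6 counts, and Il18r1, the ligand-binding chain for interleukin-18, had 0 in both. Its partner chain Il18rap had 51 and 74 counts, or 0.59 and 0.66 TPM.

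Of 13 other interleukin-1 family genes 2 reached 1 TPM in both libraries, Il1rl2 and the alarmin gene Il33, at 2.16 and 3.2 TPM. A count of 0 in both libraries was found for 7 of the 13. Of the 4 that could be compared 1, Il1f9, was 2-fold or more lower in replicate 2, with a log2 ratio of -1.69, and none was higher. Over all genes compared these shares were 2.23% and 1.73%.

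The genes that process and release these cytokines were almost all present. Of 19, 18 reached 1 TPM in both libraries. The highest were Ninj1, which ruptures the membrane of dying cells, at 379.04 and 369.06 TPM, the inflammasome sensor Nlrp3 at 271.03 and 157.59 TPM, and the calpain Capn2 at 132.45 and 116.95 TPM. None of the 19 was 2-fold or more lower in replicate 2, beside 2.23% of all genes compared, and 2 were higher, beside 1.73%. The 2 were Nlrp1a with a log2 ratio of 1.28, from 51 and 169 counts, and Txnip with 1.13. The list's median log2 ratio was 0.08, beside 0.009 over all genes.

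Genes of receptor signalling were present as widely, with 14 of 15 at 1 TPM or more. The highest were the ubiquitin ligase Peli1 at 134.31 and 194.66 TPM, the ubiquitin-conjugating enzyme Ube2n at 142.88 and 110.67 TPM and the adaptor Myd88 at 110.43 and 117.73 TPM. None was 2-fold or more lower in replicate 2, beside 2.23% of all genes compared. Higher by as much was 1, Peli2 with a log2 ratio of 1.14, beside 1.73%. The median was 0.17. In TPM Peli1, Ube2n and Myd88, named as the highest of the list, stood above Il1r1 and Il1rap in both libraries. Tab1, at 1.45 and 1.07 TPM, and Peli3, at 0.56 and 0.89 TPM, stood below Il1rap in both. Tab3, at 3.16 and 2.5 TPM, stood below Il1rap in replicate 1 alone.

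Among protein-coding genes with a mean TPM within 2-fold of Il1b, 65 in all, the nearest in log2 ratio between the libraries were the chemokine genes Ccl3, at 3209.31 and 1491.77 TPM, and Ccl7, at 2768.7 and 1192.53 TPM, and the galectin gene Lgals1, at 2564.95 and 1631.97 TPM. Their log2 ratios were -0.998, -1.11 and -0.55. Among 274 such genes for Il1rn the nearest were Rtp4 (0.38), the C-type lectin gene Clec4e (0.39) and Gas6 (0.38). This likeness rests on 2 libraries.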

How the data were processed

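Polyadenylated RNA of stimulated mouse macrophages was sequenced in 2 libraries of 1 group, and the replicate numbers come from the labels. Per the file headers, the authors deposited expected counts and TPM per gene, and per transcript with the percent of the gene's TPM in each, under the column names RSEM writes. A further deposited table holds estimated counts and TPM per transcript under kallisto's column names. The deposited descriptions name assembly mm10 and GENCODE annotation M21, and program versions are not given in the sources used here. Of 81881 entries the 55536 mouse genes were kept.

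Expected counts were rounded for edgeR 4.0.16 (R 4.3.3), which gave TMM factors and the common dispersion over genes with 10 counts or more. Genes were compared where both counts averaged 50 or more, and called at 2-fold. Intervals for ratios of counts are exact binomial (Clopper-Pearson) at 95%, those for counts exact Poisson, and neither covers more than counting error, because the reads carry no molecular identifiers and may repeat a molecule. TPM rests on estimated lengths, so genes with short or uncertain transcripts are less certain. The rest used scipy 1.17.1, pandas 2.3.3 and matplotlib 3.10.9 in Python 3.11.15. The TMM-normalised ratio between libraries was tested on simulated counts with known changes.

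The members and gene lists were chosen with earlier results of these data known. Named from the lists of processing and of signalling genes and of other family genes were the 3 genes highest in mean TPM and the one furthest apart between libraries, with any other family gene at 1 TPM or more. The 3 genes most like Il1b and Il1rn were named by their ratio. Further genes of the marker lists, the neighbouring genes and the overlapping genes were named after their values were seen. Alternatives were DESeq2 1.42.0 size factors, total counts, other minimums and pseudocounts, the kallisto table, posterior mean TPM, CPM, coding transcripts alone and each library alone.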

Additional observations from a re-analysis of the deposited data

How the results depend on the processing

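With CPM in place of TPM, which leaves out transcript length, the mean log2 ratio of Il18bp to Il18 was 1.73 and that of Il1r2 to Il1r1 turned to -1.36, against 0.58 and 0.74. Taking each replicate alone, the Il1r2 to Il1r1 ratio ranged from -0.21, without replicate 2, to 1.69, that of Il1rn to Il1a plus Il1b from -3.05 to -1.59, and that of Il18bp to Il18 from 0.41 to 0.76. With DESeq2 size factors 2 members were 2-fold apart, Il1a and Il1r2, against 1. The number of all genes 2-fold apart was 1044 at a mean count of 10, 186 at 200, 2521 for all genes with a count in both libraries and 230 with log2(TPM + 1), against 414. The share of these lower in replicate 2 was 41.4% at a mean count of 200. At 5 TPM 5 members passed, against 8 at 1 TPM. The kallisto table gave lower means for all 8 members, for example 2179 against 2694 TPM for Il1b. The shift passed the SD only for Il1rn, at 649.9 TPM, and Il18bp, at 58.6 TPM, whose SDs were the smallest in relation to their means. The other 31 values of ratios and counts and 30 of levels kept their direction and moved by less than the SD, or by under 1.5 times for counts. For a replicate taken alone the SD limit could not be passed, because with 2 libraries each lies within the SD of their mean. The causes of these shifts were not tested. Depth limits Il1r2, Il1r1 and Il1rap, whose levels rest on 46 to 296 counts. No paired analysis was possible because the labels give 1 group.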
